A study of Mus musculus with 7 samples.

Results

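The genes described here are 9 noncoding genes followed by symbol: the nuclear long noncoding RNAs Neat1 and Malat1, and the snoRNA host genes Gas5, Snhg1, Snhg3, Snhg5, Snhg6, Snhg8 and Snhg12. They are 9 of the 56953 genes in the count files, 2 of them nuclear RNAs and 7 of them hosts, and all 9 were abundant enough to be tested. They were chosen by name with earlier results of these data known, and not by their own values.

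RNA was measured in 7 libraries of live CD45- CD31- cells, which lack the common leukocyte marker and an endothelial marker, sorted from B16 tumours 5 days after treatment. B16 is a mouse melanoma line. For the 3 AAV-iIL12 libraries, the mice had received 8 Gy of radiotherapy together with AAV-iIL12, an adeno-associated virus vector named for interleukin 12. For the 4 AAV-iLuc libraries, they had received the same 8 Gy and the control vector AAV-iLuc, so every library came from an irradiated tumour and none from an untreated one. The labels used here give no mouse strain, age or sex and do not state what drives the vectors. The titles of the AAV-iIL12 libraries also carry the letters WT, which the labels do not explain. The design text counts libraries as mice, so p-values rest on the spread between animals.

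Neat1 is the RNA scaffold of paraspeckles, nuclear bodies that hold RNA-binding proteins such as NONO, SFPQ and PSPC1. Malat1, transcribed from the neighbouring gene, is concentrated in nuclear speckles, where splicing factors are stored. The snoRNA hosts carry small nucleolar RNAs in their introns, and these guide the chemical modification of ribosomal RNA after the host transcript is spliced. Several spliced hosts, Gas5 among them, begin with a run of pyrimidines (a 5' TOP) like the mRNAs of ribosomal proteins, and are degraded during translation by nonsense-mediated decay, so that their level is known to depend on growth state.

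The libraries held between 17057054 and 19080587 counts in AAV-iIL12 and between 16356653 and 18705849 counts in AAV-iLuc. The melanocyte gene Dct stood between 8000 and 8311 CPM (counts scaled to a library of fixed size) in AAV-iIL12 and between 7575 and 8339 CPM in AAV-iLuc. Ptprc, the gene of CD45, had 37, 45 and 19 counts in AAV-iIL12 and 47, 3, 1 and 8 counts in AAV-iLuc replicates 1 to 4. Replicate 1 of AAV-iLuc also stood apart in the summed level of 16 interferon response genes. That sum was 13467, 11446 and 11571 CPM in AAV-iIL12, against 1239 CPM in AAV-iLuc replicate 1 and 424, 266 and 214 CPM in replicates 2 to 4. The summed level of 16 genes of dividing cells was 581, 949 and 915 CPM in AAV-iIL12, against 2689, 2156, 2832 and 2909 CPM in AAV-iLuc. By the edgeR quasi-likelihood test with an adjusted p under 0.05 (Benjamini-Hochberg), 23.5% of the 13990 genes tested rose and 23.7% fell, and the median log2 fold change was -0.01. Of all calls, 49.8% were higher with TMM scaling, but 36.0% when counts were scaled by library size alone (2506 higher, 4460 lower) and 38.5% with the upper quartile.

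Of the noncoding RNAs, 5 rose in AAV-iIL12 tumours, namely Malat1, Gas5, Snhg6, Snhg8 and Snhg12. None fell by edgeR, DESeq2 or limma-voom, and 0 were lower at an unadjusted p under 0.05. Neat1, Snhg1, Snhg3 and Snhg5 did not pass the threshold. The 5 rises of 9 stand beside 23.5% of all genes tested. The median log2 fold change of the 9 was 0.42, and that of the 7 hosts was also 0.42. Among all 963 noncoding genes tested, 16.9% rose and 11.4% fell, with a median of 0.03. The groups did not overlap for Gas5, Snhg6, Snhg8 and Snhg12, which is 4 of 9, against 52.5% of all genes tested. The rises were modest, between 1.33-fold for Snhg6 and 1.64-fold for Malat1 by the log2 fold changes of the edgeR fit.

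**Figure D1:**
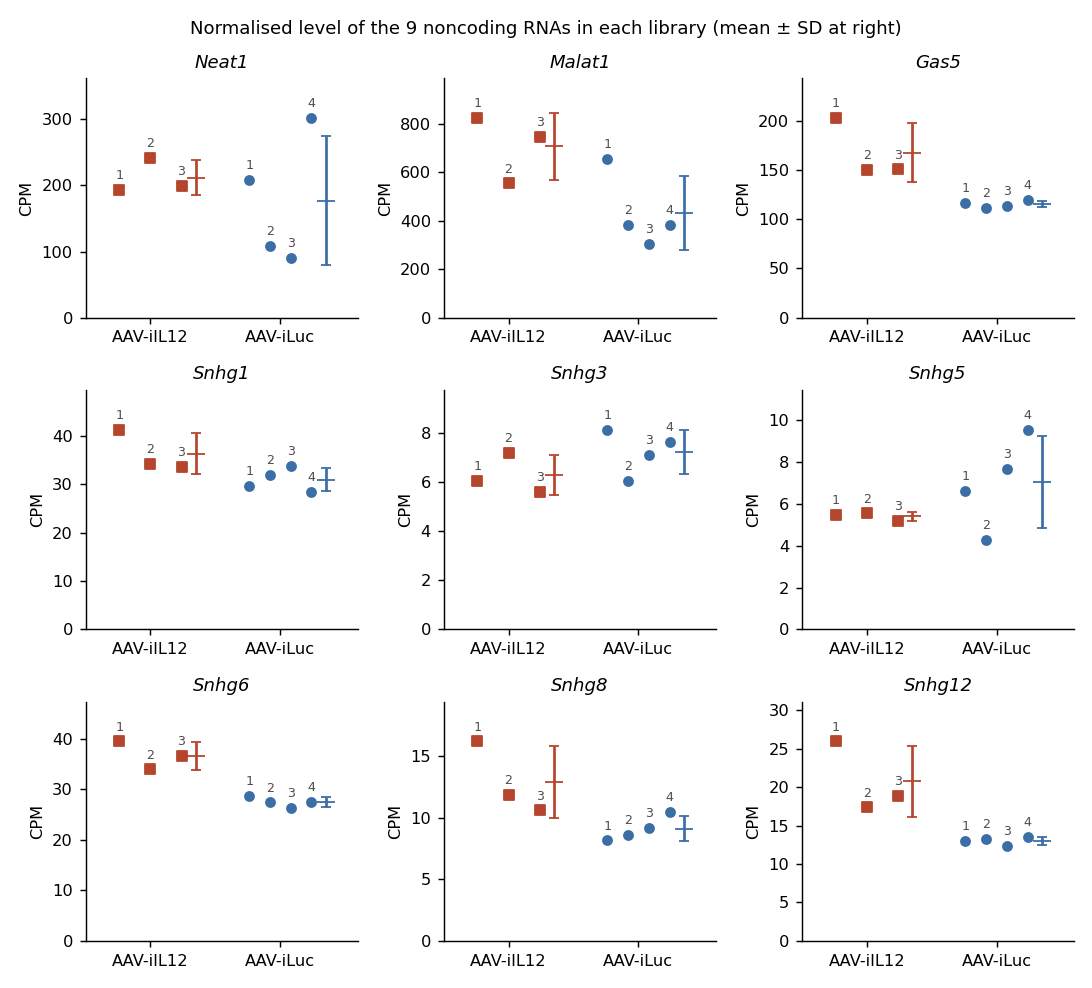
CPM of each noncoding RNA in every library, with AAV-iIL12 on the left and AAV-iLuc on the right of each panel; points are libraries, numbered by replicate, and the mean ± SD stands to their right. Gas5, Snhg6, Snhg8 and Snhg12 are higher in every AAV-iIL12 library than in any AAV-iLuc library, whereas Neat1 ranges from 90.7 to 301 CPM within AAV-iLuc.

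Malat1 and the long isoform of Neat1 share an unusual 3' end. It is cut by RNase P rather than polyadenylated, and it is stabilised by a triple helix in which an A-rich tract pairs with U-rich motifs. The short isoform of Neat1 is cleaved and polyadenylated in the usual way. The ends matter here because the libraries were made from RNA captured on poly(T) beads. The last bases of the transcripts in GENCODE vM21 (GRCm38) are given 5' to 3'. For Malat1 the stretch ends at position 6691 of a model of 6983 bases. Capitals mark the A-rich tract in the long forms and the AATAAA signal in the short form.
Neat1-201: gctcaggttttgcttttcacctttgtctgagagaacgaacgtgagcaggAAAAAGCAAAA
Malat1-201: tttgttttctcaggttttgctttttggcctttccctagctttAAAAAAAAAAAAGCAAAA
Neat1-202: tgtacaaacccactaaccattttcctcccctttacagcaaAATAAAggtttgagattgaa

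The long Neat1 end and the Malat1 end hold the same run of 16 bases (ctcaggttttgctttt) upstream of the tract. The long Neat1 model has 20771 bases and the short one 3004, and both start at the same end of the gene, so counts per gene do not tell them apart. How far capture on poly(T) beads depends on the genomic A-rich tract or on internal A runs was not tested.

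Neat1 did not pass the test. Neat1 (ENSMUSG00000092274, chromosome 19, 5874736 to 5895898, minus strand, GRCm39) had 193, 241 and 199.7 CPM in AAV-iIL12, against 208, 108, 90.7 and 301 CPM in AAV-iLuc. The AAV-iIL12 libraries lay inside the AAV-iLuc range, whose highest value, in replicate 4, was the highest of the 7. Its log2 fold change was 0.25 ± 0.35 (SE), with a 95% interval of -0.52 to 1.03 (edgeR adjusted p = 0.578), so a rise of 2-fold and a moderate fall both lay inside the interval. The spread was larger on the AAV-iLuc side. The SD of log2 CPM there was 0.81, larger than for 99.0% of the 2194 genes whose mean level was within 2-fold of Neat1. In AAV-iIL12 the SD was 0.17, larger than for 90.8% of the same genes. Without AAV-iLuc replicate 4 the log2 fold change was 0.64 (adjusted p = 0.0824), and without replicate 3 it was 0.04 (adjusted p = 0.924).

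Malat1 rose. Malat1 (ENSMUSG00000092341, chromosome 19, 5845717 to 5852704, minus strand) had 822, 554 and 746 CPM in AAV-iIL12, against 654, 384, 306 and 382 CPM in AAV-iLuc. The groups overlapped, with AAV-iLuc replicate 1 above AAV-iIL12 replicate 2. The log2 fold change was 0.71 ± 0.23 (SE), with a 95% interval of 0.20 to 1.22 (edgeR adjusted p = 0.0264). Without AAV-iLuc replicate 1 it was 0.99 (adjusted p = 0.000377). That library also had the highest summed leukocyte marker level of its group, 17.0 CPM against 2.44 to 4.74 CPM in the other AAV-iLuc libraries and 8.19 to 13.5 CPM in AAV-iIL12. Its interferon sum was also the highest of its group. The part of leukocyte RNA or of the interferon response in the Malat1 levels was not tested. The call ended without AAV-iIL12 replicate 1 or 3 (adjusted p = 0.0866 and 0.0763), without AAV-iLuc replicate 2, 3 or 4 (adjusted p = 0.0635, 0.0629 and 0.0653), and in DESeq2 (adjusted p = 0.0638).

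Although the genes are neighbours, separated by 22031 bases on the same strand, Neat1 and Malat1 did not keep a fixed proportion. There were 23.5, 43.6 and 26.8 Neat1 counts per 100 Malat1 counts in AAV-iIL12, against 31.9, 28.1, 29.6 and 78.8 in AAV-iLuc. AAV-iLuc replicate 4, with the highest Neat1, had an ordinary Malat1 level for its group, and the groups overlapped. Set against the most abundant host, Malat1 counts were 4.07, 3.70 and 4.96 times those of Gas5 in AAV-iIL12, against 5.59, 3.44, 2.7 and 3.21 times in AAV-iLuc. That ratio overlapped between the groups as well.

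Gas5 rose with little spread among controls. Gas5 (growth arrest specific 5, ENSMUSG00000053332, chromosome 1, 160861992 to 160866116, plus strand) had 202, 149.7 and 150.4 CPM in AAV-iIL12, against 117, 112, 113 and 119 CPM in AAV-iLuc. Every AAV-iIL12 library stood above every AAV-iLuc library, with replicate 1 the highest. The log2 fold change was 0.54 ± 0.10 (SE), with a 95% interval of 0.32 to 0.76 (edgeR adjusted p = 0.00135). Gas5 made up 57.6% to 60.1% of the counts of the 7 hosts in AAV-iIL12 and 54.1% to 55.4% in AAV-iLuc.

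Snhg12 rose, with the highest fold change of the 7 hosts. Snhg12 (ENSMUSG00000086290, chromosome 4, 132035932 to 132038762, plus strand) had 26.0, 17.4 and 18.9 CPM in AAV-iIL12, against 13.0, 13.3, 12.3 and 13.5 CPM in AAV-iLuc. The AAV-iLuc values were nearly level and all below the AAV-iIL12 values. The log2 fold change was 0.67 ± 0.13 (SE), with a 95% interval of 0.37 to 0.96 (edgeR adjusted p = 0.00213). Snhg12 carries 4 annotated snoRNA genes of its strand within its span, Snora16a, Snora44, Snora61 and Snord99.

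Snhg6 rose with the smallest error of the set. Snhg6 (ENSMUSG00000098234, chromosome 1, 9926809 to 10014398, minus strand), host of Snord87, had 39.4, 33.9 and 36.5 CPM in AAV-iIL12, against 28.6, 27.4, 26.3 and 27.4 CPM in AAV-iLuc. The groups did not overlap. The log2 fold change was 0.42 ± 0.07 (SE), with a 95% interval of 0.26 to 0.57 (edgeR adjusted p = 0.000861).

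Snhg8 rose by a similar amount with less certainty. Snhg8 (ENSMUSG00000104960, chromosome 3, 123301194 to 123302053, minus strand), host of Snora24, had 16.2, 11.9 and 10.6 CPM in AAV-iIL12, against 8.16, 8.61, 9.17 and 10.5 CPM in AAV-iLuc. The groups were separated only narrowly, between AAV-iIL12 replicate 3 and AAV-iLuc replicate 4. The log2 fold change was 0.50 ± 0.15 (SE), with a 95% interval of 0.15 to 0.84 (edgeR adjusted p = 0.0226). The call ended without AAV-iIL12 replicate 1 (log2 fold change 0.31, adjusted p = 0.0889), without AAV-iLuc replicate 2 (adjusted p = 0.0516) and with scaling by library size alone (adjusted p = 0.0530).

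Snhg1 (ENSMUSG00000108414, chromosome 19, 8700801 to 8703811, plus strand) missed the threshold. It had 41.2, 34.2 and 33.6 CPM in AAV-iIL12, against 29.7, 31.9, 33.7 and 28.3 CPM in AAV-iLuc. A single AAV-iLuc library, replicate 3, reached the lowest AAV-iIL12 value. The log2 fold change was 0.23 ± 0.09 (SE), with a 95% interval of 0.03 to 0.44 (edgeR adjusted p = 0.0601). Without AAV-iLuc replicate 3 it passed, at 0.28 (adjusted p = 0.0432).

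Snhg3 and Snhg5 had negative fold changes that did not pass. Snhg3 (ENSMUSG00000085241, chromosome 4, 132075325 to 132080997, minus strand) had 6.03, 7.17 and 5.60 CPM in AAV-iIL12, against 8.11, 6.03, 7.09 and 7.63 CPM in AAV-iLuc, a log2 fold change of -0.20 ± 0.14 (SE, edgeR adjusted p = 0.269), and its groups overlapped. Snhg5 (ENSMUSG00000097195, chromosome 9, 88377321 to 88405615, minus strand) had 5.48, 5.54 and 5.16 CPM in AAV-iIL12, against 6.60, 4.28, 7.68 and 9.54 CPM in AAV-iLuc. The AAV-iIL12 values of Snhg5 were close together and lay within the wider AAV-iLuc range. Its log2 fold change was -0.38 ± 0.23 (SE), with a 95% interval of -0.90 to 0.13 (edgeR adjusted p = 0.201). Without AAV-iLuc replicate 2, the lowest of its group, Snhg5 was called lower, at -0.56 (adjusted p = 0.0191).

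**Figure D2:**
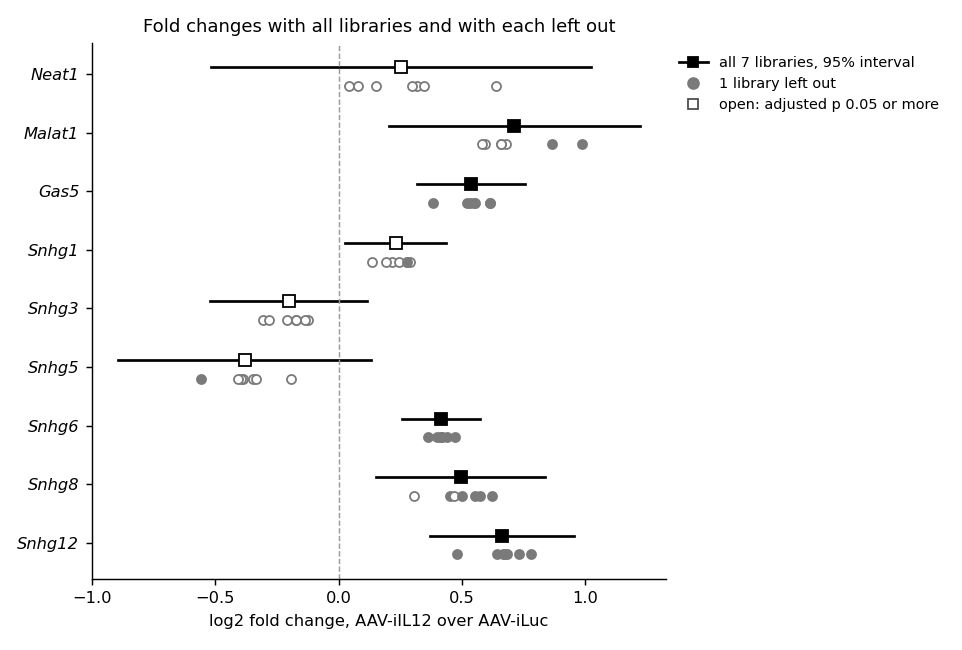
Log2 fold change of each noncoding RNA, AAV-iIL12 over AAV-iLuc, with all libraries (square, with its 95% interval) and with each library left out (circles); open symbols had an adjusted p of 0.05 or more. The intervals of Neat1, Snhg3 and Snhg5 cross 0, and Neat1 moves between 0.04 and 0.64 with the library left out.

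The summed level of the 7 hosts was 337, 260 and 261 CPM in AAV-iIL12, against 211, 203, 210 and 216 CPM in AAV-iLuc. AAV-iIL12 replicate 1 was the highest of the 7 libraries for Malat1, Gas5, Snhg1, Snhg6, Snhg8 and Snhg12, and it also had the lowest dividing-cell sum and the highest interferon sum. The part of either in the host levels was not tested. In bulk RNA of sorted cells, more RNA per cell and more cells of a type with high levels cannot be told apart.

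Levels per kilobase of annotated exon depend on the annotation, since exons were merged over all isoforms. Merged exons took 4001 of the 4125 bases of Gas5 and the whole span of Snhg1, Snhg8 and Snhg12. For Snhg3 they took only 986 of 5673 bases. The order of the genes therefore holds for these lengths only. On that scale Malat1 was the most abundant at 101 ± 19.8 CPM per kb in AAV-iIL12 and 61.7 ± 21.8 in AAV-iLuc (SD, n = 3 and n = 4). Gas5 followed at 41.8 ± 7.53 CPM per kb in AAV-iIL12 and 28.8 ± 0.86 in AAV-iLuc. Snhg8, a host of only 860 exon bases, had 15.0 ± 3.41 CPM per kb in AAV-iIL12 and 10.6 ± 1.19 in AAV-iLuc. Snhg1 had 12.1 ± 1.41 CPM per kb in AAV-iIL12 and 10.3 ± 0.79 in AAV-iLuc, so Snhg8 and Snhg1 did not differ beyond their spread in either group. Neat1 had 9.99 ± 1.24 CPM per kb in AAV-iIL12 and 8.37 ± 4.62 in AAV-iLuc over its 21163 exon bases, most of which only the long isoform covers. Snhg6, Snhg12 and Snhg3 lay between 6.36 and 8.68 CPM per kb in AAV-iIL12 and between 4.61 and 7.32 in AAV-iLuc. In AAV-iIL12 the mean of Neat1 lay above that of Snhg6 by slightly more than either SD. The order Snhg6, Snhg12, Snhg3 there had no step larger than the spread. In AAV-iLuc, Neat1, Snhg3 and Snhg6 did not differ beyond the spread, with Snhg12 below Snhg6. Snhg5 was lowest, at 1.48 ± 0.06 CPM per kb in AAV-iIL12 and 1.93 ± 0.60 in AAV-iLuc.

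The host genes overlap small RNA genes on their own strand, and fragments that touch several genes were not assigned to any under the options in the file headers. The overlap took 16.7% of the exon bases of Gas5, 20.7% of Snhg1, 16.6% of Snhg12 and 15.1% of Snhg8, but 2.06% of Snhg6, 1.81% of Neat1 and 1.23% of Malat1. Gas5 holds 9 snoRNA genes, Snhg1 holds 8 and Snhg12 holds 4, and each of these had 0 counts in all libraries. Because these snoRNA genes overlap host exons, that rule leaves their fragments unassigned, so the zeros follow from the counting. For Snhg3 the overlap was 29.8% of exon bases, 135 of them shared with Rcc1, the highest share of the set. Poly(A) libraries do not measure the snoRNAs themselves, so the values are those of the host transcripts.

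The starts of the hosts are shown because the 5' TOP is the feature that ties several of them to growth signals. Each line gives 50 bases before and 50 bases from the start in RefSeq (GRCm38.p6), 5' to 3' on the strand of the gene, with capitals for the longest run of C and T that lies between 10 bases before and 20 bases after that start. Of the 9 genes, 7 had an entry, and Neat1 and Snhg6 had none.
Gas5 (chr1:161035116-161035215, plus strand): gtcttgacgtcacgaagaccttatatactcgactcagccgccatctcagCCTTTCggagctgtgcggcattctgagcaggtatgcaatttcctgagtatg
Snhg12 (chr4:132308628-132308727, plus strand): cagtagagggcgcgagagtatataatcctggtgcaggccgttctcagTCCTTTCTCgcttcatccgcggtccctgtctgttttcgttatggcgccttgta
Snhg8 (chr3:123508287-123508386, minus strand): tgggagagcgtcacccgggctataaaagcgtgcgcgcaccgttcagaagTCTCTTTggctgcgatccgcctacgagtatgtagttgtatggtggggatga
Snhg1 (chr19:8723437-8723536, plus strand): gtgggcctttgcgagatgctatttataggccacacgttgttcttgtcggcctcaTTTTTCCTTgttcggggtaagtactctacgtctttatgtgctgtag
Snhg3 (chr4:132353637-132353736, minus strand): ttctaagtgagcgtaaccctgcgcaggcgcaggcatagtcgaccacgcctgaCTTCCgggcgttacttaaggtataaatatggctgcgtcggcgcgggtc
Snhg5 (chr9:88522848-88522947, minus strand): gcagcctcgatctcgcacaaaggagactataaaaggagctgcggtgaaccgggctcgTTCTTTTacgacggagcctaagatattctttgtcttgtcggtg

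The run was 9 bases long in Snhg12 and Snhg1, 7 in Snhg8 and Snhg5, 6 in this Gas5 entry and 5 in Snhg3, against a median of 5 over 32851 promoters. A run of 9 or more was found in 11.6% of promoters and one of 7 or more in 24.6%. A second, upstream Gas5 entry had a run of 3, and Malat1 had a run of 4. Runs of 7 or more were found in Snhg12 and Snhg8, which rose, and in Snhg1 and Snhg5, which did not pass. Their positions differed. Counting the start base as 1, the run began at -3 in Snhg12 and at -1 in Snhg8 and this Gas5 entry, and so covered the start. It began downstream of the start in Snhg3, Snhg1 and Snhg5, at 3, 5 and 8. Whether length or position of the run goes with the change in level was not tested. TATAAA stood 20 to 40 bases upstream of the start in Snhg5 and Snhg8, against 1.99% of promoters. On either strand of the window from 250 bases before to 50 after the start, none of the 7 genes held CACGTG (the E-box bound by MYC and MAX) or TTCNNNGAA (a STAT motif), which were found in 7.15% and 8.3% of promoters. These are matches of letters and say nothing about binding.

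Neighbouring genes moved in both directions, as did all genes tested, of which 23.5% rose and 23.7% fell. Of 17 neighbours that are not themselves among the 9, the nearest tested gene on each side, 3 rose, 6 fell and 8 did not pass. The closest neighbour without overlap was Slc3a2, the heavy chain of the CD98 amino acid transporter, whose start lies 67 bases from Snhg1 on the opposite strand. Snhg1 itself did not pass (edgeR adjusted p = 0.0601). Slc3a2 rose, at 494 ± 54.4 CPM in AAV-iIL12, against 354 ± 33.9 CPM in AAV-iLuc (SD, n = 3 and n = 4), with a log2 fold change of 0.48 ± 0.09 (SE, edgeR adjusted p = 0.00177).

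Beside Gas5, Zbtb37, which overlaps its start on the opposite strand, did not pass (log2 fold change 0.10, adjusted p = 0.440). Beside Snhg12, Trnau1ap, 311 bases away on the opposite strand, had a log2 fold change of -0.03 (adjusted p = 0.799) and Taf12 one of -0.13 (adjusted p = 0.393). Rcc1, the exchange factor for the GTPase Ran, overlaps Snhg3 on its strand. Rcc1 fell by 0.91 on the log2 scale, at 17.8 ± 1.98 CPM in AAV-iIL12, against 33.5 ± 3.54 CPM in AAV-iLuc, while Phactr4 on the other side of Snhg3 rose by 0.39. Sgk3, a kinase gene that overlaps the span of Snhg6 on the opposite strand, rose by 0.31, and Syncrip beside Snhg5 fell by 0.41. Frmd8, 3831 bases from Neat1, did not pass (log2 fold change -0.09, adjusted p = 0.179), nor did Gm37376, an antisense transcript inside Malat1 (0.45, adjusted p = 0.244). Cops5 and Ndst3 fell by 0.16 and 0.61 (adjusted p = 0.0244 and 0.0422). The call of Cops5 ended with any AAV-iIL12 library left out, or AAV-iLuc replicate 3 or 4, and that of Ndst3 with AAV-iIL12 replicate 2 or 3 left out, or AAV-iLuc replicate 1, 3 or 4. Wdr74, Zfp949 and Prss12 did not pass, at -0.13, 0.34 and -0.11.

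**Figure D3:**
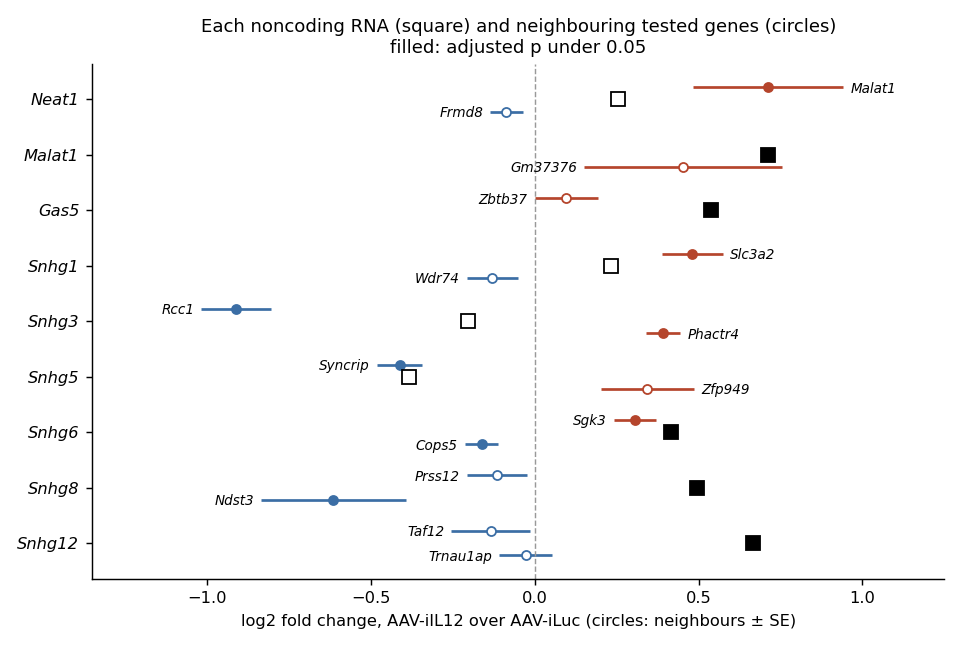
Log2 fold change, AAV-iIL12 over AAV-iLuc, of each noncoding RNA (square) and of neighbouring tested genes (circles with SE; filled symbols passed the threshold). Slc3a2 and Phactr4 lie to the right of the host beside them, and Rcc1 lies well to the left.

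Most protein partners of Neat1 fell. Of 23 paraspeckle proteins tested, 16 fell, 2 rose and 5 did not pass, with a median log2 fold change of -0.29, against 23.7% of all genes that fell and a median of -0.01. Rbmx, Rbm14 and Pspc1 fell by 0.64, 0.60 and 0.54, and the core proteins Sfpq and Nono, chosen after their values were seen, fell by 0.54 and 0.26. Pspc1 stood at 35.6 ± 4.20 CPM in AAV-iIL12, against 51.9 ± 1.01 CPM in AAV-iLuc (adjusted p = 0.000337). Hnrnpk, the most abundant of the list, fell by 0.22. Hnrnph3 and Cirbp rose by 0.34 and 0.33, but only 1 of the list rose with AAV-iIL12 replicate 1 or 3 left out, or AAV-iLuc replicate 2 or 3, and 0 when scaled by library size alone.

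The nuclear speckle proteins were divided. Of 20 tested, 6 rose, 5 fell and 9 did not pass, with a median of -0.03. These shares, 30% and 25%, stand beside 23.5% and 23.7% of all genes tested. Tra2a, a splicing activator, rose by 0.50, and Srrm2, a scaffold of speckles and the most abundant of the list at 1152 ± 51.9 CPM in AAV-iIL12, against 955 ± 57.5 CPM in AAV-iLuc, rose by 0.27. The splicing factors Srsf1 and Srsf10 fell by 0.71 and 0.35.

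Genes that process or act on Neat1 and Malat1 moved in both directions. Of 20 tested, which include p53, hypoxia, RNase P, m6A and decay factors, 8 fell, 2 rose and 10 did not pass, with a median of -0.16. The falls were 40% and the rises 10%, against 23.7% and 23.5% of all genes tested. Scaled by library size alone or by the upper quartile, 12 fell and 1 rose. Pop1, a subunit of RNase P, which cuts the 3' ends of both RNAs, fell by 0.87, at 11.7 ± 1.19 CPM in AAV-iIL12, against 21.4 ± 2.02 CPM in AAV-iLuc (adjusted p = 0.000104). Dis3, a nuclease of the exosome, fell by 0.72 and the m6A methyltransferase Mettl16 by 0.55. Hif1a, the most abundant, did not pass (log2 fold change 0.11, adjusted p = 0.197).

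Most genes of the machinery that the snoRNAs work in fell. Of 17 genes listed for snoRNA particles and their assembly, 13 fell, 2 rose and 2 did not pass, with a median of -0.49. The falls were 76.5% of that list, against 23.7% of all genes tested. The rises numbered 1 without any AAV-iIL12 library or without AAV-iLuc replicate 2 or 3, and 0 when scaled by library size alone. Nhp2 and Dkc1, core proteins of the particles that make pseudouridine, fell by 0.73 and 0.67, and Nop58 of the methylation particles by 0.43. Nolc1, a nucleolar chaperone of these particles, fell by 0.67, at 87.9 ± 2.57 CPM in AAV-iIL12, against 140.2 ± 14.5 CPM in AAV-iLuc. Of 32 genes listed for RNA polymerase I and ribosome biogenesis, 22 fell, 10 did not pass and none rose by edgeR, DESeq2 or limma-voom. Their median was -0.26, with 0 higher at an unadjusted p under 0.05. This list holds Taf1a, Taf1b and Taf1c, whereas Taf1d was counted in the snoRNA particle list, as 1 of its 2 rises. Taf1d rose by 0.25 (edgeR adjusted p = 0.0160), so the absence of rises depends on that placement. Polr1e, a polymerase I subunit, fell by 0.95, Tcof1 by 0.68, Bop1 by 0.55 and the abundant nucleolin gene Ncl by 0.41. All 16 genes of the dividing-cell list fell as well, with a median of -1.83, and its part in these counts was not tested.

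Hosts outside the set moved in both directions. Of 12 other genes on the list of noncoding hosts, 3 rose, 1 fell and 8 did not pass, with a median of -0.04. That is 25% higher and 8.33% lower, against 23.5% and 23.7% of all genes tested. Zfas1, a TOP-type host of the Snord12 family, rose by 0.97, at 61.7 ± 9.70 CPM in AAV-iIL12, against 31.4 ± 0.96 CPM in AAV-iLuc (adjusted p = 2.74e-05). Mir17hg, which carries microRNAs rather than snoRNAs, rose by 0.87, Epb41l4aos, named after its value was seen, rose by 0.67, and Snhg20 fell by 0.58. Of 32 protein-coding hosts, 12 fell (37.5%), 3 rose (9.38%) and 17 did not pass, with a median of -0.04. Scaled by library size alone, 14 fell and 1 rose, and at a threshold of 0.01, 8 fell and 1 rose. The translation factor gene Eif4a2 rose by 0.64, whereas Ppan fell by 0.52 and Dkc1, itself a host, fell. Some falls of this list, those of Ncl, Ppan and Dkc1 among them, were also counted above for snoRNA particles or ribosome biogenesis. Eef2, the most abundant, did not pass (log2 fold change 0.10, adjusted p = 0.0844).

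Of 16 nonsense-mediated decay factors, which act on spliced hosts, 6 fell, 3 rose and 7 did not pass, with a median of -0.01. Falls made up 37.5% and rises 18.8%, against 23.7% and 23.5% of all genes tested. The falls numbered 3 with AAV-iIL12 replicate 2 or 3 left out, or AAV-iLuc replicate 3. The helicase gene Dhx34 rose by 0.52, and Eif4a3, of the exon junction complex, fell by 0.36. Smg1, the kinase of the pathway, did not pass (log2 fold change 0.07, adjusted p = 0.423). Of 23 genes of the MYC network and mTORC1 control, 11 rose (47.8%), 6 fell (26.1%) and 6 did not pass, with a median of 0.10. Mxd1, which competes with MYC for MAX, rose by 1.07, at 103 ± 13.0 CPM in AAV-iIL12, against 48.8 ± 4.80 CPM in AAV-iLuc, and Max rose by 0.70. Myc itself rose by 0.37 and Mxd3, of the same family as Mxd1, fell by 1.72, both named after their values were seen. Larp1, which binds TOP mRNAs, rose by 0.32, and Eif4ebp2, a translation repressor under mTORC1, fell by 0.60.

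Other long noncoding RNAs with known nuclear or regulatory roles rose or did not pass. Of 12 tested, 6 rose, 6 did not pass and none fell by edgeR, DESeq2 or limma-voom. Their median was 0.19, with 0 lower at an unadjusted p under 0.05. Over all genes tested, 23.5% rose and 23.7% fell. Firre, a nuclear RNA of the X chromosome, rose by 0.71, at 205 ± 6.56 CPM in AAV-iIL12, against 126 ± 13.7 CPM in AAV-iLuc. The gene annotated as 2900097C17Rik, a synonym of Norad, rose by 0.33. Mir155hg, the host of an immune microRNA, rose by 2.45 at a low level of 0.70 ± 0.06 CPM in AAV-iIL12, against 0.12 ± 0.05 CPM in AAV-iLuc. The most abundant, 1700020I14Rik, a synonym of Oip5os1, did not pass (log2 fold change 0.03, adjusted p = 0.774).

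**Figure D4:**
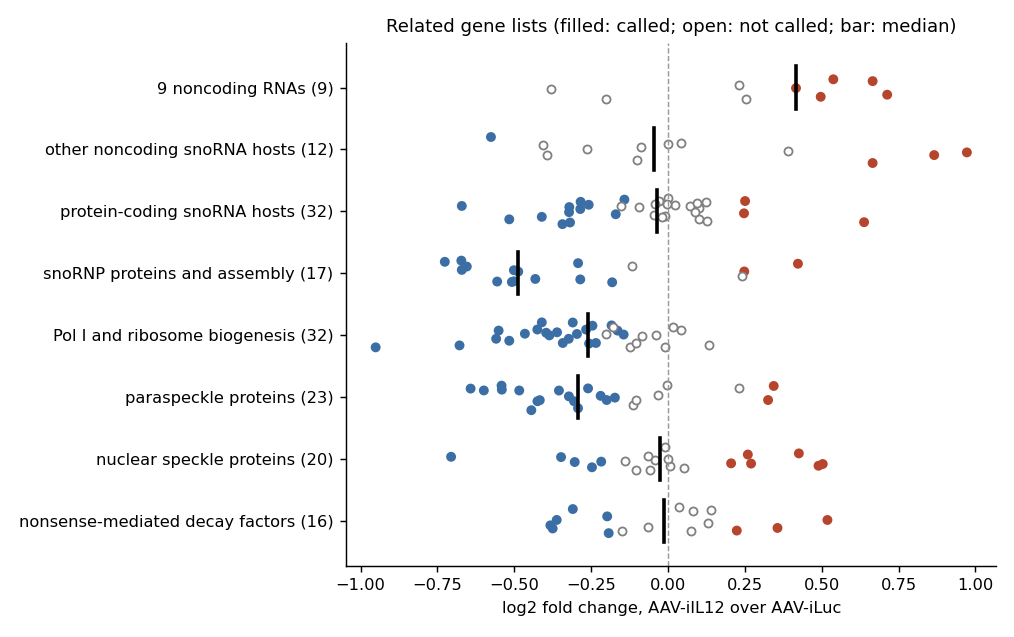
Log2 fold changes, AAV-iIL12 over AAV-iLuc, of the tested genes of each related list, with the list median. Paraspeckle, snoRNA particle and ribosome biogenesis genes lie mostly below 0, with medians of -0.29, -0.49 and -0.26, and the 9 noncoding RNAs lie mostly above 0.

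Genes whose levels followed each called RNA over the 7 libraries were sought by Pearson correlation of log2 CPM among 8982 genes. The coefficients describe 7 points that share the group difference, and many genes that differ between the groups reach high values. For Malat1 the named gene with the highest coefficient after CT030661.1 (0.986) was the mitochondrial 12S ribosomal RNA, mt-Rnr1 (0.980). mt-Rnr1 had 343, 235 and 280.2 CPM in AAV-iIL12, against 263, 191, 171 and 182 CPM in AAV-iLuc, and AAV-iLuc replicate 1 was again the highest of its group. It rose by 0.50 (edgeR adjusted p = 0.0242), while the mitochondrial share of all counts was lower, at 1.97% ± 0.10 in AAV-iIL12 and 2.24% ± 0.06 in AAV-iLuc (exact permutation test, two-sided p = 0.0286, the smallest that 35 splits allow, adjusted p = 0.0477 over 10 measures).

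The third gene for Malat1 was Snx11 (0.976). For Gas5 the closest were Plk3 (0.995), a stress-responsive kinase, Lztr1 (0.993) and Pfdn5 (0.993), a subunit of the prefoldin chaperone. For Snhg6 they were Exoc3l4, Gpsm3 and Micu2 (0.997, 0.997 and 0.996), for Snhg8 Alg5, Ndufa6 and Emc7 (0.991, 0.985 and 0.984), and for Snhg12 Tsc22d1, Sphk2 and Npc2 (0.994, 0.991 and 0.991). Exoc3l4 differed far more between the groups than Snhg6 did, with a log2 fold change of 1.46 against 0.42.

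Of 8 melanoma markers, 4 rose, namely Pmel (by 0.58), Mlana (by 0.38), Mitf (by 0.25) and Slc45a2 (by 0.17, named after its value was seen), and the other four, Dct among them, did not pass. That is 50% higher and 0% lower, against 23.5% and 23.7% of all genes tested. The summed level of the 8 markers was 29052 to 29948 CPM in AAV-iIL12 and 23850 to 27124 CPM in AAV-iLuc, without overlap (exact permutation test, two-sided p = 0.0286). The difference of 3935 CPM in the means was 2197 CPM when scaled by library size alone. The part of the melanoma sum in the levels of the 9 RNAs was not tested.

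Markers of other cells were low beside the melanocyte genes. Of 16 leukocyte markers, Ms4a1 was at 0 in every library, and their summed level was 8.19 to 13.5 CPM in AAV-iIL12 and 2.44 to 17.0 CPM in AAV-iLuc. Of 10 endothelial markers, Emcn, Tie1, Cdh5 and Cldn5 were at 0 in every library, with sums of 22.5 to 34.5 CPM in AAV-iIL12 and 34.8 to 41.4 CPM in AAV-iLuc, mostly Vwf. Of 12 fibroblast and pericyte markers none was at 0 in every library, with sums of 62.0 to 164 CPM in AAV-iIL12 and 89.8 to 306 CPM in AAV-iLuc. Of 6 keratinocyte markers, Krt5 and Krt1 were at 0 in every library, with sums of 4.63 to 8.09 CPM in AAV-iIL12 and 1.91 to 2.76 CPM in AAV-iLuc. The endothelial sum was lower and the keratinocyte sum higher in AAV-iIL12, without overlap (exact permutation test, two-sided p = 0.0286 each). Both sums rest on few genes, since only 2 endothelial markers and 1 keratinocyte marker were abundant enough to be tested. Vwf itself did not pass, at 20.5 ± 5.83 CPM in AAV-iIL12, against 21.9 ± 2.80 CPM in AAV-iLuc (edgeR adjusted p = 0.692). The other tested endothelial marker fell. The part of these sums in the levels of the 9 RNAs was not tested.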

How the data were processed

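What the authors deposited were raw counts of fragments for each gene, made with featureCounts 1.6.0 on GENCODE vM32 exons, reverse-stranded and paired, per the file headers. STAR 2.7.9a, FastQC 0.11.8, edgeR, limma and the build GRCm39 are named in the submitters' processing notes. Symbols came from GENCODE vM21 by identifier, and from RefSeq synonyms.

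Counts were compared with edgeR 4.0.16 (R 4.3.3): quasi-likelihood F test, TMM, filterByExpr, Benjamini-Hochberg adjustment over all 13990 genes at 0.05. CPM is TMM-scaled, fold changes are AAV-iIL12 over AAV-iLuc, and SE was derived from the F statistic. Composition measures used a two-sided exact permutation test over 35 splits in Python 3.11.15. For correlations, log2 CPM had a prior count of 2, and genes had a mean of at least 10 CPM.

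Members and lists were chosen with earlier results of these data known. Named were all members, the 3 called genes of smallest p and the most abundant gene of each list, the nearest tested genes, and 3 correlated genes (no Gm, Rik, AC, AL or Mir names) per called member. Melanoma, dividing-cell and interferon lists and those of other cell types served as checks.

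Alternatives were median-of-ratios, library size and upper quartile scaling, no low-count filter, 1 CPM in 3 libraries, DESeq2 1.42.0, limma-voom (limma 3.58.1), a threshold of 0.01, a replicate block and each library left out. The fit was tested on simulated data. No libraries of a group were duplicates (chi-square per degree of freedom 3.49 to 14.1). The labels give no sequencing batch. A few genes that the naming rule picked are not reported here.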

Additional observations from a re-analysis of the deposited data

How the results depend on the processing

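The signs of all 9 RNAs held under every alternative run. Of the 9, 3 rose at a threshold of 0.01, and 3 to 5 rose and 0 to 1 fell with each library left out, the fall being Snhg5 without AAV-iLuc replicate 2. Malat1 lost its call in DESeq2 (log2 fold change 0.72, adjusted p = 0.0638) and at 0.01 (0.71), and lay between 0.58 and 0.99 with a library left out. Snhg8 lost its call at 0.01 (0.50) and with library size only (0.41), and lay between 0.31 and 0.62. Snhg1 gained a call with no low-count filter (0.24, adjusted p = 0.0448) and lay between 0.14 and 0.29. Snhg5 lay between -0.56 and -0.19. Gas5 (0.38 to 0.62), Snhg6 (0.36 to 0.47) and Snhg12 (0.48 to 0.78) kept their calls with any 1 library left out. Trnau1ap, never called, lay between -0.096 and 0.036, turning positive without AAV-iIL12 replicate 3.

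The replicate numbers were not taken as pairs. Deviations of same-numbered libraries from their group means correlated at 0.09, 0.03 and -0.05. Such values, from groups this small, cannot tell whether the samples were paired. With the replicate number as a block, which leaves AAV-iLuc replicate 4 without a partner, Neat1 was called at 0.73 (adjusted p = 0.0461), and 2832 of all genes rose and 2828 fell. With a library left out, Neat1 lay between 0.04 and 0.64. Among protein-coding hosts, 8 fell and 2 rose with the block. The deposited gene counts hold no isoforms.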
